A study of Homo sapiens with 4 samples.

Results

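Late-numbered miRNA symbols were the rows of the small RNA table named MIR with a number of 3000 or higher. miRNA genes are numbered in the order in which they entered the registry, so these are late entries. Host gene symbols and 4 further symbols (MIR3605, MIR3651, MIR3653 and MIR3607) were left out by name. Members were chosen by level: the mean over the 4 libraries had to reach at least 1 CPM (reads per 1000000 reads that were counted to genes). This rule kept 233 of 1069 late-numbered symbols, in a table of 26485 genes. Of the others, 833 had a mean under 1 CPM, and 544 late-numbered symbols were at 0 in all libraries. Because the mean level chose the members, their levels are given below as a description, with no test.

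Both groups were HCT116 cells, derived from a human colon carcinoma, whose Drosha gene had been knocked out in another laboratory (Drosha k.o.). The 2 CD95L libraries came from cells that had received CD95L in the lentivirus pLenti-GIII-CMV-RFP-2A-Puro, and the 2 vector libraries from cells that had received this virus empty. For HCT116 cells the study's methods name a CD95L that cannot bind its receptor and has a stop codon placed behind the start. Its mRNA was driven by the CMV promoter of the virus. Infected cells were pooled, selected with 3 µg/mL puromycin and plated, and total RNA was taken at 50 h. The treatment notes and the methods count these hours from plating, another label from selection, and that label gives 2 days of selection where the methods plate the cells on the day after it began. Both titles of the vector libraries, and neither of the CD95L titles, carry a mark (# 2) of unknown meaning, and a batch of that kind cannot be told apart from the groups. Where the duplicates parted is not stated, so the spread behind each p-value is that between libraries and may be technical.

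Most animal miRNAs are made in steps. Drosha, with its partner DGCR8, cuts a hairpin out of a long nuclear transcript, Dicer cuts off the loop, and an Argonaute protein keeps a strand that finds target mRNAs through its seed, the bases near its 5′ end. Mirtrons bypass Drosha: a short intron is spliced out, opened by the debranching enzyme DBR1, and folds into a hairpin that Dicer can use. In tailed mirtrons splicing sets only the end next to a splice site, and a nuclease trims the other. Many late entries come from deep sequencing, and some share sequence with tRNAs, rRNAs or mitochondrial RNAs.

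Gene reads ran to 22897068 and 22488145 in the CD95L libraries, against 24915394 and 25163566 in the vector libraries, so a count of 0 (3 counts) allows 0.119 to 0.133 CPM. FASLG, the gene for CD95L, stood at 94.9 and 90.5 CPM in CD95L libraries, against 1.16 and 2.94 CPM in vector libraries. DROSHA fragments stood at 10.1 and 13.6 CPM in CD95L libraries, against 13.6 and 10.4 CPM in vector libraries, and do not check a knockout that both groups carry. Colon epithelial markers summed to 149 and 152 CPM in CD95L libraries, against 158 and 154 CPM in vector libraries, with 12 of 14 tested. KRT18 and KRT8 were the highest of these, with means of 55.9 and 52.8 CPM, and EPCAM had 2.79 CPM. The endothelial marker VWF had a mean of 50.9 CPM, so these mRNA fragments do not check the cell type. Vector replicate 1 stood apart: 34 tested miRNAs listed as Drosha-dependent had a median 4.50 times their level in vector replicate 2, and summed to 125 and 125 CPM in CD95L libraries, against 1110 and 276 CPM in vector libraries. A list of 26 miRNAs of other cell types moved with them, at 2.84 and 2.05 CPM in CD95L libraries, against 51.5 and 9.90 CPM in vector libraries, of which 14 were at 0 in all libraries. MIR126, a miRNA of endothelial cells, was the highest on that list, at 1.48 and 0.711 CPM in CD95L libraries, against 35.0 and 6.48 CPM in vector libraries. The part of these miRNAs in the differences below was not tested. Counts and medians of the differences and the summed shares are also given without vector replicate 1.

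RefSeq sequences (GRCh38.p14) matched 210 of the 233 members. The following mature sequences belong to 5 of the 8 members with the highest mean. MIR6723, MIR4286 and MIR4461 are named only. They are written 5′ to 3′ with the seed (bases 2 to 8) in capitals, and those that close with cca come before the others.
hsa-miR-4454: gGAUCCGAgucacggcacca
hsa-miR-7977: uUCCCAGCcaacgcacca
hsa-miR-7974: aGGCUGUGaugcucuccugagccc
hsa-miR-3929: gAGGCUGAugugaguagaccacu
hsa-miR-3928-3p: gGAGGAACcuuggagcuucggc

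The next set shows the form most common among the members. Each hairpin lies at the end of an intron, and the 3p arm is rich in pyrimidines and closes with ag, the letters before a 3′ splice site. The last 2 arms lie at the other end of an intron, next to its 5′ splice site. hsa-miR-6858-5p begins with gugag, as the start of an intron often does, and hsa-miR-4745-5p with ugag, just inside the start of its hairpin.
hsa-miR-5010-3p: uUUUGUGUcucccauuccccag
hsa-miR-3620-3p: uCACCCUGcaucccgcacccag
hsa-miR-7111-3p: aUCCUCUCuucccuccucccag
hsa-miR-6852-3p: uGUCCUCUguuccucag
hsa-miR-6749-3p: cUCCUCCCcugccuggcccag
hsa-miR-6858-5p: gUGAGGAGgggcuggcagggac
hsa-miR-4745-5p: uGAGUGGGgcucccgggacggcg

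Reads were concentrated in a few members. Of the 233, 3 had a mean of at least 1000 CPM, 8 lay between 100 and 1000, 53 between 10 and 100, 119 between 2 and 10, and 50 under 2. The median mean was 4.15 CPM, and the median over members and libraries was 100.5 reads. The 3 highest held 63.8% and 66.1% of the members' reads in CD95L libraries, against 69.2% and 68.6% in vector libraries. Hairpins were 47 to 164 bases long, so length mattered little to the order: 8 of the 10 highest have a hairpin length, and all 8 were also among the 10 highest per 100 bases.

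MIR7974 led at 3653 and 3378 CPM in CD95L libraries, against 5518 and 4614 CPM in vector libraries. The exact 95% binomial intervals of its share of gene reads were 0.363% to 0.368% and 0.335% to 0.340% in CD95L libraries, against 0.549% to 0.555% and 0.459% to 0.464% in vector libraries. Both CD95L libraries lay below both vector libraries, and these intervals cover counting error only. Its hairpin lies on the minus strand of chromosome 19 (11495544 to 11495622, hg38), in an intron of an unnamed read-through gene, away from a splice site, and its mature sequence occurs at 1 place in the genome. MIR4454 (chromosome 4, 163093574 to 163093628, outside genes) stood at 1569 and 2293 CPM in CD95L libraries, against 2017 and 1913 CPM in vector libraries. The CD95L libraries lay on both sides of the vector pair. MIR7977 (chromosome 3, 176515103 to 176515151, antisense to LINC01208) stood at 909 and 1307 CPM in CD95L libraries, against 1352 and 1271 CPM in vector libraries, with the groups overlapping. In both MIR4454 and MIR7977 CD95L replicate 1 was the lowest of the 4 libraries.

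MIR4454 and MIR7977 are 2 of the 3 members with a mature arm that ends in CCA, the letters that close every tRNA. The third was MIR4484. In the genome the whole sequences of these 3 occur at 1 place each, and without the last 3 bases at 1 place for MIR4454, 3 places for MIR7977 and 7 places for MIR4484, 1 of them mitochondrial. By the usual rules of HTSeq a read that maps to several places is not counted. For MIR4454 both searches gave 1 place. They covered exact matches of the mature sequence only, so whether reads on its hairpin map to several places was not tested. Whether reads of tRNAs or other RNAs were counted at these 3 symbols was not tested, and their levels are uncertain. So are those of the 5 other members (MIR6723, MIR4461, MIR4521, MIR4449 and MIR6087) on a list of symbols that may share reads with other RNA classes. These 8 held 36.2% of the members' CPM. Their median difference between CD95L and vector libraries was 0.03 on the log2(CPM + 1) scale, with 4 negative and 4 positive.

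**Figure D1:**
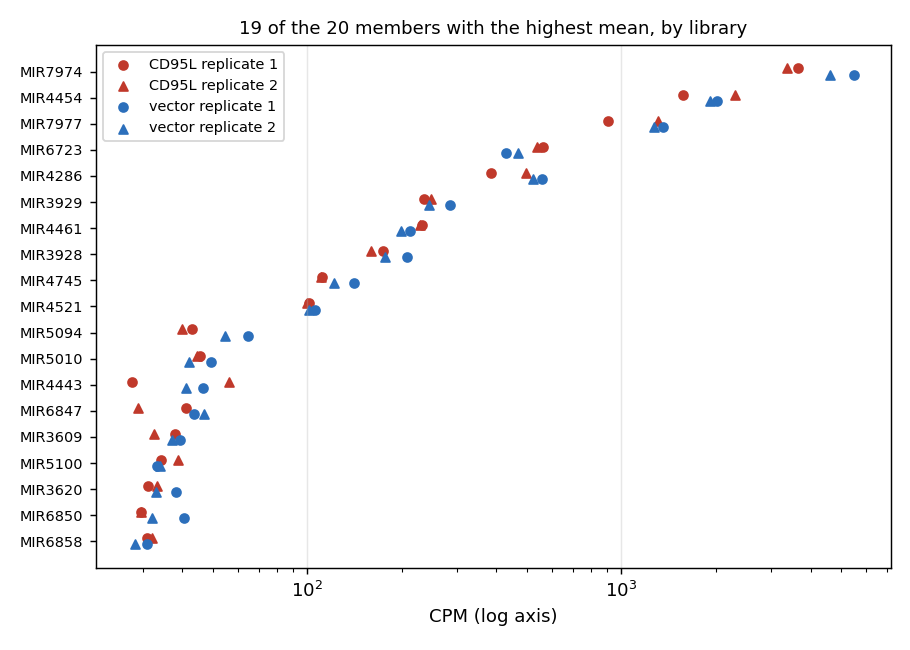
CPM (log axis) of 19 of the 20 members with the highest mean, 1 row per member, with CD95L libraries in red above vector libraries in blue (circle, replicate 1; triangle, replicate 2). MIR7974 stands highest in all 4 libraries and its CD95L values (3653 and 3378 CPM) lie left of its vector values (5518 and 4614 CPM), whereas MIR4454 and MIR7977 overlap between groups.

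Members lay at splice sites in a larger share than other miRNA symbols. A hairpin was placed at a splice site if the hairpin or a mature arm ended within 5 bases of an intron end of a coding or long noncoding transcript on the same strand (GENCODE annotation of hg38, RefSeq hairpins). Of 228 members with a position, 154 (67.5%) did so. The level chose the members and their position did not enter that choice. Among late-numbered symbols that were not chosen the count was 88 of 818 (10.8%). Among earlier-numbered miRNA symbols it was 17 of 113 (15.0%) with a mean of at least 1 CPM, and 14 of 689 (2.03%) with a lower mean. Read the other way, 154 of 242 late-numbered symbols at splice sites (63.6%) were members, against 74 of 804 elsewhere (9.20%). A limit of 2 bases placed 151 members (66.2%) at splice sites and a limit of 10 bases placed 158 (69.3%). With the mean taken without vector replicate 1, 231 late-numbered symbols reached 1 CPM and 153 of the 226 with a position (67.7%) lay at splice sites. No test was run on these counts.

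Most of the 154, namely 130, had their 3′ end at an acceptor, the splice site that closes an intron. Another 13 spanned a whole intron, the classic mirtron form, and 11 had their 5′ end at a donor, the splice site that opens it. The remaining members with a position lay elsewhere in an intron (23), outside genes (22), antisense to a gene (16) or in an exon (13). The block of symbols from MIR6717 to MIR6895 supplied most cases: 109 of its 112 chosen symbols with a position (97.3%) lay at splice sites, but so did 60 of 76 that were not chosen (78.9%). In the other blocks the chosen symbols also lay there more often than those not chosen. From MIR3000 to MIR3999 the counts were 3 of 19 (15.8%) against 3 of 211 (1.42%), from MIR4000 to MIR4999 they were 23 of 58 (39.7%) against 11 of 335 (3.28%), from MIR5000 to MIR6716 they were 10 of 24 (41.7%) against 10 of 121 (8.26%), and from MIR6896 on 9 of 15 (60.0%) against 4 of 75 (5.33%).

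**Figure D2:**
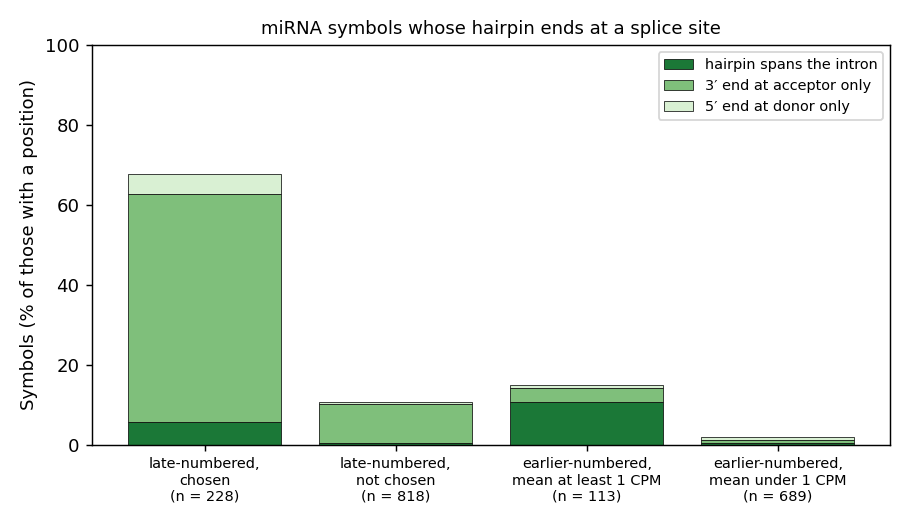
Percent of miRNA symbols with a position whose hairpin ends at a splice site (vertical axis, from 0), stacked by the kind of splice site, for late-numbered symbols that were chosen and not chosen and for earlier-numbered symbols above and below 1 CPM. The chosen late-numbered symbols reach 67.5%, mostly with the 3′ end at an acceptor, and no other group passes 15.0%.

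Members at splice sites were many and held 11.6% of the members' CPM, whereas the 74 members with a position elsewhere held 81.8%, most of it in MIR7974, MIR4454 and MIR7977. The median level was closer: 3.89 CPM at splice sites and 5.20 CPM elsewhere, with 13.9 CPM for the 13 members that span an intron. MIR4745 (chromosome 19, 804940 to 805001), among the 10 highest of all, opens an intron of 73 bases in PTBP1, a regulator of splicing, and stood at 111 and 111 CPM in CD95L libraries, against 141 and 122 CPM in vector libraries. Each CD95L library lay below each vector library, with vector replicate 1 the highest.

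Lower members lay in introns of varied length. MIR5010 closes an intron of 144 bases in ATP6V0A1, a subunit of the vacuolar proton pump, and stood at 45.4 and 44.6 CPM in CD95L libraries, against 49.4 and 42.2 CPM in vector libraries. MIR3620 fills an intron of 79 bases in ARF1, a small GTPase of the Golgi, from end to end (chromosome 1, 228097263 to 228097341) and stood at 31.0 and 33.3 CPM in CD95L libraries, against 38.2 and 32.9 CPM in vector libraries. MIR6891 fills an intron of 93 bases in HLA-B, which presents peptides to T cells, and stood at 22.8 and 22.4 CPM in CD95L libraries, against 24.3 and 24.7 CPM in vector libraries. Only MIR6891 of these 3 had both CD95L libraries below both vector libraries. Ribosomal protein genes also hosted members: MIR6797, in an intron of 484 bases of RPS19, at 23.6 and 17.9 CPM in CD95L libraries, against 27.9 and 26.4 CPM in vector libraries, and MIR7111, in an intron of 228 bases of RPL10A, at 23.2 and 23.1 CPM in CD95L libraries, against 25.4 and 18.4 CPM in vector libraries. MIR6847, in an intron of 1043 bases of an unnamed gene, stood at 41.2 and 28.9 CPM in CD95L libraries, against 43.5 and 47.0 CPM in vector libraries. These examples are among the 10 highest at splice sites and were chosen after their values were seen.

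Reads per base were also set beside those of the host's exons. The choice by level nearly fixes this comparison, so nothing is read from it. A member had to reach 1 CPM over a short hairpin, and the lowest level at a splice site was 1.16 CPM per 100 bases. As a description, the ratio of CPM per base in the hairpin to that in the host's exons had a median of 30.9 over 147 pairs. The examples named above lay higher, at 247 for MIR4745 and PTBP1, 134 for MIR3620 and ARF1, 173 for MIR6891 and HLA-B, and 861 for MIR5010 and ATP6V0A1. MIR6775 and its host SLC7A5 had a ratio of 0.952. In total CPM, without regard to length, the host was higher in 116 of 147 pairs of such a member and a host gene in the table. Whether hairpin reads were mature arms or other fragments of the intron was not tested, since read positions were not analysed. The introns had a median length of 212 bases (73 to 9210), 61 were at most 150 bases long, and 30 were longer than 1000. Where several annotated introns matched in the same way, the shortest was taken, so these lengths lean short. Host genes had a median difference between CD95L and vector libraries of -0.03 on the log2(CPM + 1) scale, beside -0.08 for their members, and none of the hosts passed the test (limma, Benjamini-Hochberg).

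Mature arms of the members at splice sites carried the marks of intron ends. Of 144 members' 3p arms, 93 (64.6%) ended in AG, with 92 of 127 (72.4%) among members at splice sites and 1 of 17 (5.88%) among the others. The count was 67 of 280 (23.9%) for late-numbered symbols that were not chosen and 9 of 76 (11.8%) for earlier-numbered symbols above 1 CPM. The closing AG follows in part from the position, since introns end in these letters. The median pyrimidine content of 3p arms was 71.4% in members and 57.1% in earlier-numbered symbols above 1 CPM, and the median purine content of 5p arms was 66.7% and 54.5%. Members at splice sites had 72.7% pyrimidine in 3p arms and 68.2% purine in 5p arms. The other members had 45.5% and 54.2%, no higher than the earlier-numbered symbols. The median GC content over all arms was 61.9% in members and 50.0% in those earlier-numbered symbols. It was 61.9% in members at splice sites and 56.8% in the other members.

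Seeds were mostly unshared. The 340 mature arms of 208 members held 322 distinct seeds, and 17 seeds occurred in more than 1 member, covering 34 members. The set with the most members, UGGGGUG, is shown here with a pair that has the seed of the earlier-numbered hsa-miR-149-3p.
hsa-miR-6737-5p: uUGGGGUGgucggcccuggag
hsa-miR-6812-5p: aUGGGGUGagauggggaggagcagc
hsa-miR-6819-5p: uUGGGGUGgagggccaaggagc
hsa-miR-4728-5p: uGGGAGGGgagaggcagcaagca
hsa-miR-6785-5p: uGGGAGGGcguggaugauggug
In all, 21 members had an arm with the seed of an earlier-numbered arm, among 1120 earlier-numbered arms compared. Examples are MIR6766 with the seed of hsa-miR-219a-5p and MIR6807 with that of hsa-miR-217-5p. A shared seed is a match of letters, and targets were not measured.

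The members together took a slightly smaller share of the CD95L libraries, within what these few libraries can resolve. They held 0.961% and 1.06% of gene reads in CD95L libraries, against 1.28% and 1.14% in vector libraries (1.01% ± 0.0671 and 1.21% ± 0.103, SD, n = 2 each). The difference was -0.202 percentage points (two-sided exact permutation test, p = 0.3333, which is the smallest possible with 2 libraries against 2). It was -0.129 points without vector replicate 1. In bulk RNA, fewer cells with a small RNA and less of it per cell cannot be told apart. The 3 highest members held 0.613% and 0.698% in CD95L libraries, against 0.889% and 0.780% in vector libraries. The other 230 held 0.348% and 0.358% in CD95L libraries, against 0.395% and 0.358% in vector libraries (difference -0.0231 points, exact p = 0.667). The groups did not overlap for the 3 highest together and overlapped for the rest. Within the 3 highest, only MIR7974 had no overlap, and MIR4454 and MIR7977 overlapped between groups. Without vector replicate 1 the differences were -0.124 points for the 3 highest and -0.00440 points for the rest.

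Of reads on any miRNA symbol, the members held 32.7% and 34.9% in CD95L libraries, against 36.6% and 37.5% in vector libraries (difference -3.20 points, exact p = 0.3333). The direction turned without MIR7974, at 0.459 points. The 113 members from MIR6717 to MIR6895 held 0.139% and 0.132% of gene reads in CD95L libraries, against 0.140% and 0.132% in vector libraries (exact p = 1). This block includes MIR6723, which may share reads with another RNA class. MIR6723 stood at 564 and 541 CPM in CD95L libraries, against 430 and 468 CPM in vector libraries. The whole block summed to 1388 and 1320 CPM in CD95L libraries, against 1402 and 1316 CPM in vector libraries. The rest of the block together was thus lower in the CD95L libraries, and its share was not tested. The other 120 members held 0.822% and 0.924% of gene reads in CD95L libraries, against 1.14% and 1.01% in vector libraries (exact p = 0.3333). Members at splice sites held 0.123% and 0.120% in CD95L libraries, against 0.147% and 0.125% in vector libraries (difference -0.0149 points, exact p = 0.3333). Without vector replicate 1 this difference was -0.00404 points, and that of the other 120 members was -0.132 points.

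No member passed the test between CD95L and vector libraries. With limma on log2(CPM + 1) and Benjamini-Hochberg adjustment, 0 of 233 were called and the smallest adjusted p was 0.593, against a background of 0.0062% of 16127 genes, which was FASLG alone. edgeR called 0 (smallest adjusted p = 0.275) against 0.366% of genes, of which 0.335% lower and 0.0305% higher, and DESeq2 called 0 (smallest adjusted p = 0.278) against 0.203%. At an unadjusted p under 0.05, limma had 15 members lower (6.44%) and 1 higher (0.429%), beside 2.52% and 2.85% of all genes. edgeR had 15 lower and 2 higher at that level, beside 2.93% and 3.2% of all genes, and DESeq2 had 14 lower and 0 higher, beside 2.02% and 1.63%.

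Small differences leaned to the negative side. Of 233 members 146 (62.7%) had a negative difference and 87 a positive one, whereas 50.8% of all genes tested were negative. The median difference was -0.12 on the log2(CPM + 1) scale, beside -0.01 over all genes tested, and single members ran from -1.05 (MIR4727) to 0.66 (MIR4483, 0.0068 without vector replicate 1). The difference was under 0.25 in size for 137 members and under 0.5 for 206. Both CD95L libraries lay below both vector libraries for 64 members (27.5%, background 19.0%) and above them for 26 (11.2%, background 16.0%), and the groups overlapped for 143. The lean rested in part on single libraries. Without vector replicate 1, 132 members (56.7%) were negative, beside 46.8% of all genes, and the median was -0.04, beside 0.03 over all genes. Without CD95L replicate 2, 142 members (60.9%) were negative, close to the 59.1% of all genes, and the median was -0.12, beside -0.07 over all genes. Without CD95L replicate 1, 144 (61.8%) were negative, beside 43.6% of all genes. Without vector replicate 2, 171 (73.4%) were negative, beside 55.2% of all genes, and the median was -0.22, beside -0.04 over all genes. In all, 148 members were higher in vector replicate 1 than in vector replicate 2.

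Replicates lay closer together at higher levels, though not for each member. MIR4454 had 35936 and 51572 reads in the CD95L libraries. The median replicate SD on the log2 scale was 0.16 for 64 members of at least 10 CPM (median 442 reads per library), 0.25 for 119 between 2 and 10 CPM (93 reads) and 0.36 for 50 under 2 CPM (32 reads). The median difference was -0.13, -0.10 and -0.07 in that order. By number block, the median difference was -0.15 for 19 members from MIR3000 to MIR3999 (15 negative), -0.13 for 59 from MIR4000 to MIR4999 (41 negative), -0.09 for 26 from MIR5000 to MIR6716 (16 negative), -0.09 for 113 from MIR6717 to MIR6895 (66 negative) and 0.01 for 16 from MIR6896 on (8 negative). By position it was -0.08 for the 154 members at splice sites (94 negative) and -0.13 for the 74 elsewhere (50 negative).

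**Figure D3:**
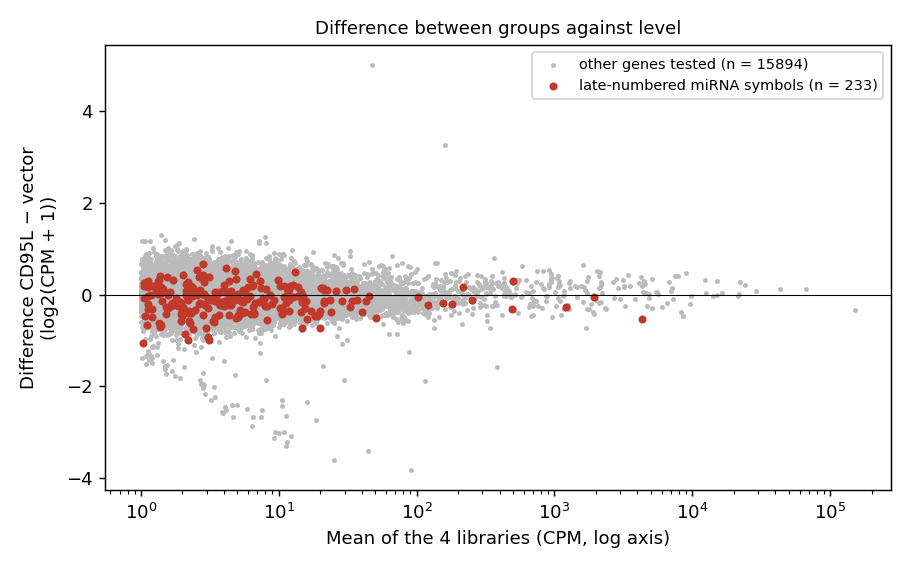
Difference between CD95L and vector libraries (log2(CPM + 1), vertical axis) against the mean of the 4 libraries (CPM, log axis) for 233 late-numbered miRNA symbols in red and 15894 other genes tested in grey. The members run from -1.05 to 0.66 with a median of -0.12, inside the cloud of other genes, and none stands with the far points above 2 or below -2.

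Among the 8 members with a negative difference and the smallest p, levels were mostly low. MIR5702 (chromosome 2, 226658710 to 226658793, outside genes) stood at 1.27 and 0.978 CPM in CD95L libraries, against 2.97 and 3.50 CPM in vector libraries, on 22 to 88 reads each. Both CD95L libraries lay below both vector libraries, and the difference was -0.997 ± 0.247 (SE, limma adjusted p = 0.593, edgeR adjusted p = 0.388). MIR6852 closes an intron of 113 bases in TLN1, the gene of the adhesion protein talin, and stood at 15.2 and 14.4 CPM in CD95L libraries, against 26.0 and 24.6 CPM in vector libraries. Its difference was -0.74 ± 0.24, and its adjusted p by edgeR (0.275) was the smallest of any member. Its 3p arm of 17 bases, shown above, occurs at 3 places in the genome. MIR3143 (chromosome 6, 27147626 to 27147688, outside genes) stood at 9.74 and 11.9 CPM in CD95L libraries, against 20.7 and 16.4 CPM in vector libraries, a difference of -0.73 ± 0.26.

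The other 5 had under 5 CPM on average, and 4 of them are given here. MIR4727 had 0.699 and 0 CPM in CD95L libraries, against 1.40 and 2.03 CPM in vector libraries, and was the only member at 0 in any library. MIR7109, in an intron of the mitochondrial lipid enzyme gene PISD, had 2.14 and 1.42 CPM in CD95L libraries, against 5.58 and 3.14 CPM in vector libraries. MIR7107, in the histone demethylase gene KDM2B, had 1.14 and 2.40 CPM in CD95L libraries, against 5.62 and 3.26 CPM in vector libraries. In all 8, both CD95L libraries lay below both vector libraries, as in 19.0% of all genes tested. The choice by the smallest p nearly fixes this, so nothing is read from it. MIR6845 had 1.53 and 1.42 CPM in CD95L libraries, against 4.29 and 2.27 CPM in vector libraries. Leaving out a library brought the difference of MIR7109 to -0.59 and of MIR6845 to -0.40 (without vector replicate 1), of MIR7107 to -0.64 (without CD95L replicate 1) and of MIR4727 to -0.67 (without CD95L replicate 2).

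On the positive side the values were no larger. MIR6749 (chromosome 11, 64902387 to 64902455) closes an intron of 123 bases in ATG2A, a lipid transfer protein of autophagy. It stood at 5.50 and 4.80 CPM in CD95L libraries, against 3.33 and 2.86 CPM in vector libraries, a difference of 0.59 ± 0.25 (limma adjusted p = 0.900). It was the only member higher at an unadjusted p under 0.05 by limma. MIR8087 (chromosome 11, 27514970 to 27515047, antisense to BDNF-AS) stood at 13.0 and 18.1 CPM in CD95L libraries, against 10.4 and 10.9 CPM in vector libraries, a difference of 0.49 ± 0.26 (0.27 without CD95L replicate 2). In both, each CD95L library lay above each vector library, as in 16.0% of all genes tested. The choice by the smallest p makes this likely, so nothing is read from it. Of the other 6, MIR5006, MIR3199-1, MIR6813 and MIR6812 also had no overlap between groups, with differences of 0.45, 0.44, 0.44 and 0.39. Without vector replicate 1 these were 0.29, 0.25, 0.23 and 0.34. MIR4483 and MIR6510 overlapped: MIR4483 had 2.84 and 4.22 CPM in CD95L libraries, against 0.803 and 3.46 CPM in vector libraries, and MIR6510, in the keratin gene KRT15, had 4.24 and 7.47 CPM in CD95L libraries, against 5.02 and 2.66 CPM in vector libraries (difference 0.50, and 0.15 without vector replicate 2). The mature sequence of MIR3199-1 occurs at 2 places in the genome, so its count is uncertain.

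**Figure D4:**
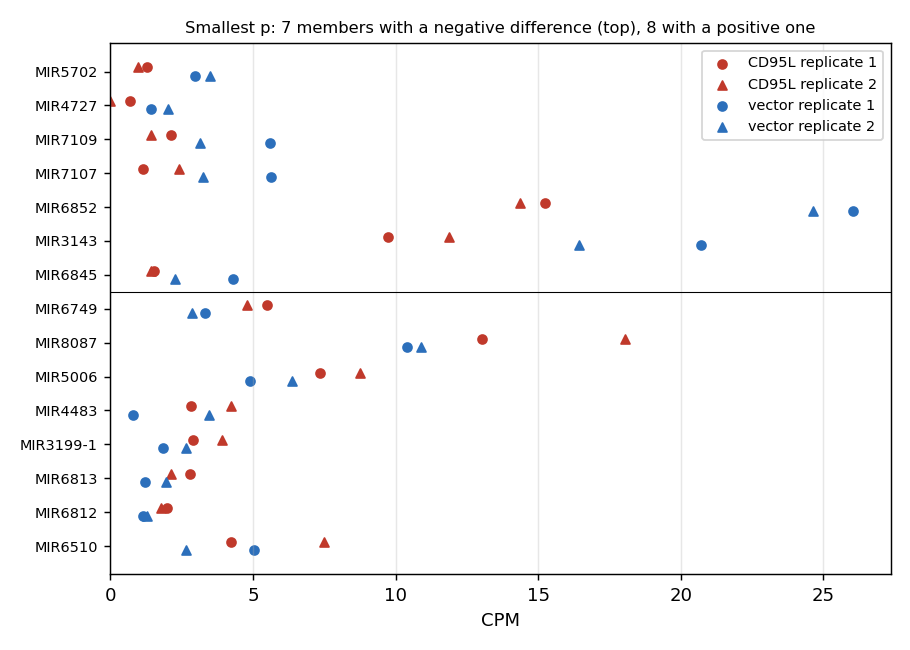
CPM in each library for 7 of the 8 members with the smallest limma p and a negative difference (above the line) and the 8 with a positive one (below it), CD95L libraries in red above vector libraries in blue. MIR6852 and MIR3143 stand apart by level, with CD95L values between 9.74 and 15.2 CPM and vector values between 16.4 and 26.0 CPM, and MIR8087 reaches 18.1 CPM in a CD95L library.

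The members with the highest means were named by level and not by p. MIR7974 had the largest difference in size of the 10 highest, -0.52 ± 0.25 (limma adjusted p = 0.923), or 0.694 times the vector mean. MIR6723, one of the symbols that may share reads with another RNA class, stood at 564 and 541 CPM in CD95L libraries, against 430 and 468 CPM in vector libraries, a difference of 0.30 ± 0.24. MIR4286 stood at 384 and 496 CPM in CD95L libraries, against 559 and 523 CPM in vector libraries, a difference of -0.31 ± 0.25 (-0.12 without CD95L replicate 1). Those 3 had no overlap between groups. MIR3929 and MIR3928 stood at 235 and 248 CPM and at 175 and 160 CPM in CD95L libraries, against 284 and 243 CPM and 207 and 177 CPM in vector libraries, and MIR4461 at 232 and 228 CPM in CD95L libraries, against 212 and 198 CPM in vector libraries. MIR3928 and MIR4461 also had no overlap between groups, and MIR3929 overlapped.

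The members lay closer together in the vector libraries than some other miRNA lists did. Members had a median ratio of vector replicate 1 to vector replicate 2 of 1.13, and CD95L libraries averaged a median 0.972 times vector replicate 2. For the 34 Drosha-dependent miRNAs tested these ratios were 4.50 and 0.362, with a median difference of -1.84, 32 negative, and 21 lower by edgeR. Without vector replicate 1 their median was -0.91 and 8 were lower by edgeR, against 0.0965% of all genes. For the 115 earlier-numbered symbols above 1 CPM the first ratio was 2.26, the median difference was -0.69, and 43 were lower by edgeR, or -0.39 and 12 without vector replicate 1. A list of mirtrons held earlier-numbered symbols and the late-numbered MIR3605, which was left out of the members by name. For its 14 tested symbols the first ratio was 1.18 and the median difference -0.16. For 6 symbols of the miR-320 family, which also bypasses Drosha, these were 0.969 and 0.05, with none called in either list. The lists share the same 4 libraries with the members and no difference between lists was tested. The mRNAs of the small RNA machinery were counted here only as fragments, which do not measure mRNA levels. Of 29 tested, 14 were negative, 15 positive and none passed by limma or edgeR, with a median of 0.01. Fragments of DBR1, the debranching enzyme, stood at 12.4 and 12.2 CPM in CD95L libraries, against 14.4 and 13.8 CPM in vector libraries. Those of DICER1 stood at 9.52 and 10.8 CPM in CD95L libraries, against 14.2 and 11.1 CPM in vector libraries.

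**Figure D5:**
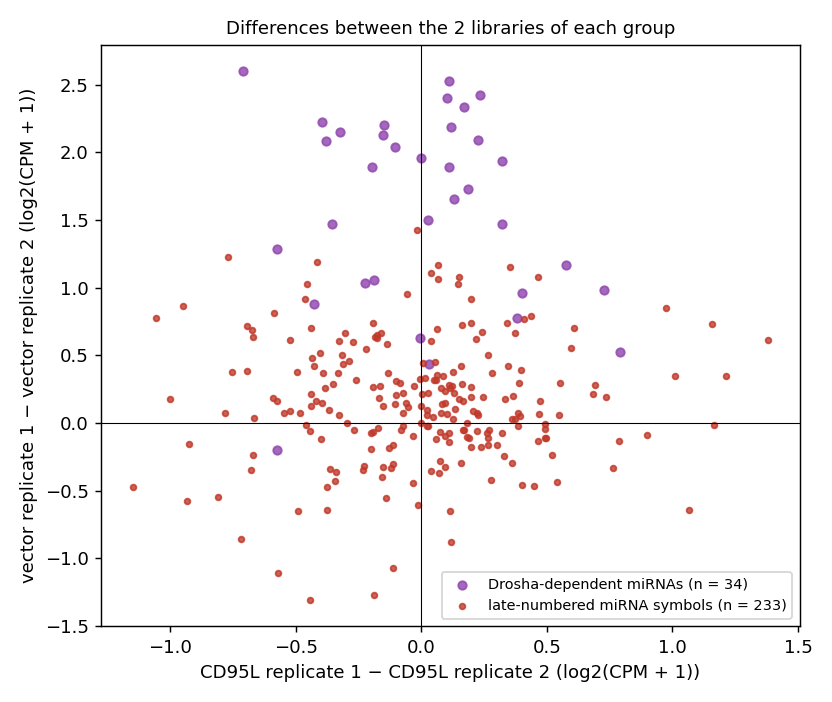
Difference between replicate 1 and replicate 2 within the CD95L group (horizontal axis) and within the vector group (vertical axis), both in log2(CPM + 1), for 233 late-numbered miRNA symbols in red and 34 Drosha-dependent miRNAs in purple. Most purple points lie high on the vertical axis (median ratio 4.50 between the vector libraries) but near 0 on the horizontal one, whereas the red points gather around 0 on both (median ratio 1.13).

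At the edge of the choice, levels were alike on both sides. The lowest members were MIR6849, with a mean of 1.04 CPM, and MIR4727, with a mean of 1.03 CPM. The highest symbols left out by level were MIR5680, with a mean of 0.979 CPM, and MIR3178, with a mean of 0.966 CPM. Of the members, 217 had a mean of at least 1 CPM in both groups, 6 only in the CD95L group and 10 only in the vector group.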

How the data were processed

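Small RNA from total RNA of 2 CD95L and 2 vector libraries was sequenced on an Illumina HiSEQ4000 after an Illumina small RNA kit. The authors trimmed reads with TrimGalore, aligned them to hg38 with TopHat (Bowtie2 is also named in the submitters' processing notes), obtained gene counts with HTSeq and compared groups with edgeR. Versions of the authors' tools: not given in the sources used here. Deposited values were CPM that sum to 1000000 in each library, without a composition factor. Columns of the authors' own comparison (a log2 average, a log2 fold change and p-values, deposited per gene) were not used. In each library 100% of CPM values were whole multiples of 1 read (within 0.01 of a read), so whole reads were recovered. HTSeq usually skips reads with several matches or within overlapping features, which makes members in exons or with copies uncertain.

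limma 3.58.1 (R 4.3.3) on log2(CPM + 1), with group as the only term and no variance trend, was fitted on the 16127 genes that averaged 1 CPM or more. This scale understates changes of genes with few reads. Two-sided p-values were adjusted by Benjamini-Hochberg over all genes tested, with a threshold of 0.05. edgeR 4.0.16 (quasi-likelihood, TMM, 19686 genes) and DESeq2 1.42.0 on the recovered reads were alternatives, as were the pseudocount, filters, scaling, the replicate block and leaving out each library. Read shares were compared by exact permutation tests (scipy 1.17.1). The fits were tested on simulated data. Positions came from GENCODE transcripts and RefSeq hairpins on hg38, and mature sequences were searched as exact matches on both strands. The rule for naming took the 10 members with the highest means, the 8 with the smallest p in each direction, and the values next to the level limit, and 2 of these members are not reported here. The members and lists were chosen with earlier results of these data known. Gene lists of Drosha-dependent miRNAs, mirtrons (earlier-numbered, and MIR3605), the miR-320 family, small RNA machinery, symbols shared with other RNA classes and cell type markers were described by counts and medians. Fibroblast markers summed to 42.5 and 48.4 CPM in CD95L libraries, against 36.9 and 28.6 CPM in vector libraries, leukocyte markers to 18.2 and 27.7 CPM, against 18.3 and 18.3 CPM, and endothelial markers to 48.4 and 72.3 CPM, against 62.9 and 56.5 CPM.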

Additional observations from a re-analysis of the deposited data

How the results depend on the processing

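No member was called in any setting run, whereas the count of all genes called ran from 1 as reported to 0 with a pseudocount of 0.1 or with no filter on low genes, 28 with TMM factors, 31 with DESeq2 size factors, 29 with a variance trend, 72 with edgeR, 46 with DESeq2 and 80 with a replicate block. Leaving out a library gave 9 to 79 genes by limma and 22 to 90 by edgeR (34 without CD95L replicate 1, 37 without CD95L replicate 2). The cause was not tested. Over all genes tested, same-numbered libraries showed no common deviation (correlation -0.00198 over 16127 genes). That value cannot speak for single genes. NCBP1, for example, followed the replicate number, at 61.7 and 11.7 CPM in CD95L libraries, against 69.0 and 10.2 CPM in vector libraries. How many genes did so was not counted. The replicate block left the members' median difference at -0.12. The members' median stayed negative throughout, from -0.22 (without vector replicate 2) to -0.040 (without vector replicate 1) by limma, and from -0.24 to -0.044 by edgeR without each library, a set added after seeing the data. The members' share of miRNA reads turned to 0.459 points without MIR7974. The share of members from MIR6717 to MIR6895 ran from -0.00478 to 0.00383 points when a library was left out (0.00293 without CD95L replicate 2) and was 0.00167 points for those of at least 10 CPM. All of these values include MIR6723. Of 432 values of 27 named members under alternatives, 425 kept direction and call and 7 turned, in 3 members. MIR6849 turned to 0.0026 with edgeR, to 0.32 without CD95L replicate 2 (-0.47 without CD95L replicate 1), and to 0.66 and 0.18 with edgeR without CD95L replicate 2 and without vector replicate 2. MIR4454 turned to 0.22 by limma and 0.13 by edgeR without CD95L replicate 1 (-0.32 by limma without CD95L replicate 2), and MIR4483 to -0.026 by edgeR without vector replicate 1. Replicate spread was smaller at higher levels, with a median SD of 0.16 (log2) at a median of 442 reads and 0.36 at 32 reads.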
